A study of Mus musculus with 64 samples.

Results

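Tumours and livers of mice that had received RAD001 were compared. RAD001 is everolimus, a rapamycin derivative that inhibits the mTORC1 kinase complex. The members were all arrays labelled with that treatment, 17 of the 64 in the series: 10 tumour arrays from 6 animals and 7 liver arrays from 7 animals. Both tissues came from 5 animals (numbers 700, 730, 732, 763 and 772), animal 727 gave a tumour alone, and animals 745 and 760 gave a liver alone. Animals 700, 730, 763 and 772 each gave more than 1 tumour, and such tumours entered as the mean of their log2 values.

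All animals were male C57BL/6 mice given 50 mg/kg of the liver carcinogen diethylnitrosamine by injection at 2 weeks of age. The RAD001 animals were gavaged with 10 mg/kg, 2 doses per day, over 28 days from about 44 weeks of age, and were killed at 48 weeks. They had fasted for 3 h, with the last dose given when the fast began. The reference group was treated alike but given placebo, and comprised 10 tumour arrays from 6 animals and 7 livers. Every liver sample came from a carcinogen-treated animal of the same treatment, so no healthy liver stood in the comparison.

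mTORC1 is a growth-controlling kinase complex that integrates amino acid, energy and insulin signals. When active it promotes the making of ribosomes, protein, lipid and nucleotides and restrains autophagy. Many of its effects act on translation and protein phosphorylation, which arrays of RNA do not read. Hepatocellular tumours are known for loss of mature liver functions, return of fetal liver genes and cell division.

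Values below are log2 intensities of array probes, 1 value per animal and tissue, and a difference is tumour minus liver on that log2 scale with its standard error (SE). Ranges give the lowest, median and highest of the 6 tumour animals or the 7 livers. A change was called where limma's adjusted p was under 0.05. The fit also held the other groups of the series, which entered the shared estimate of the spread. These were livers and tumours of animals given BEZ235, a second drug, alone or with RAD001. Of 10495 genes tested, 2987 were called (28.5%), with 1546 higher in tumour (14.7%) and 1441 lower (13.7%). The counts of gene lists below are to be set beside these shares. The groups did not overlap for 1005 genes (9.58%), 518 of them with all tumours above all livers. Differences over 2-fold were called for 759 genes, 422 higher and 337 lower. The median difference over all genes was -0.00545. Because 16 intensity units were added before taking logs, differences of dim genes are understated, and the number of animals limits the precision. When only the 5 animals with both tissues were used and each tumour was set against its own liver, 1585 genes were called (807 higher and 778 lower). Some animals stood apart. Over the genes that separated placebo tumours from livers, the tumour of 732 and 1 tumour of 730 lay nearest to liver. Without the tumours of these animals, picked after the data were seen, 3075 genes were called. The liver of 732 held many of the extreme liver values, and 2922 genes were called without it.

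Spink1, a secreted trypsin inhibitor found in many carcinomas, ran from 10.18 through 11.21 to 13.53 in tumours and from 4.86 through 5.73 to 8.56 in livers. Every tumour lay above every liver, and the difference of 5.49 ± 0.64 corresponded to 45.0-fold (adjusted p = 6.69e-09). Cd63, a tetraspanin of lysosomes and secreted vesicles, ran from 11.75 through 12.10 to 12.71 against 7.62 through 8.08 to 8.87, a 16.6-fold rise of 4.05 ± 0.33 (adjusted p = 2.35e-12). The tumours were tightly grouped for this gene, with an SD of 0.40 in both tissues.

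S100a11, a calcium-binding protein, ran from 11.38 through 11.80 to 12.50 in tumours and from 8.68 through 8.85 to 9.01 in livers (8.31-fold higher, adjusted p = 1.83e-11). Esm1, a proteoglycan secreted by endothelial cells, ran from 10.79 through 11.18 to 11.43 against 6.77 through 8.35 to 9.35 (8.04-fold higher, adjusted p = 1.82e-08). Lcn2, an acute phase protein that binds iron-carrying siderophores, ran from 11.54 through 12.96 to 14.30 against 7.89 through 9.56 to 11.14 (10.0-fold higher, adjusted p = 2.04e-06). Tumour and liver ranges were apart for all of these. Neurl1a, an E3 ubiquitin ligase, and Igdcc4, a receptor of the immunoglobulin family, were 16.8-fold and 9.82-fold higher (adjusted p = 1.79e-08 and 2.79e-07). Tceal5 was not well above background on any RAD001 liver array, which gives only a bound of at least 8.81-fold (adjusted p = 2.34e-05).

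**Figure D1:**
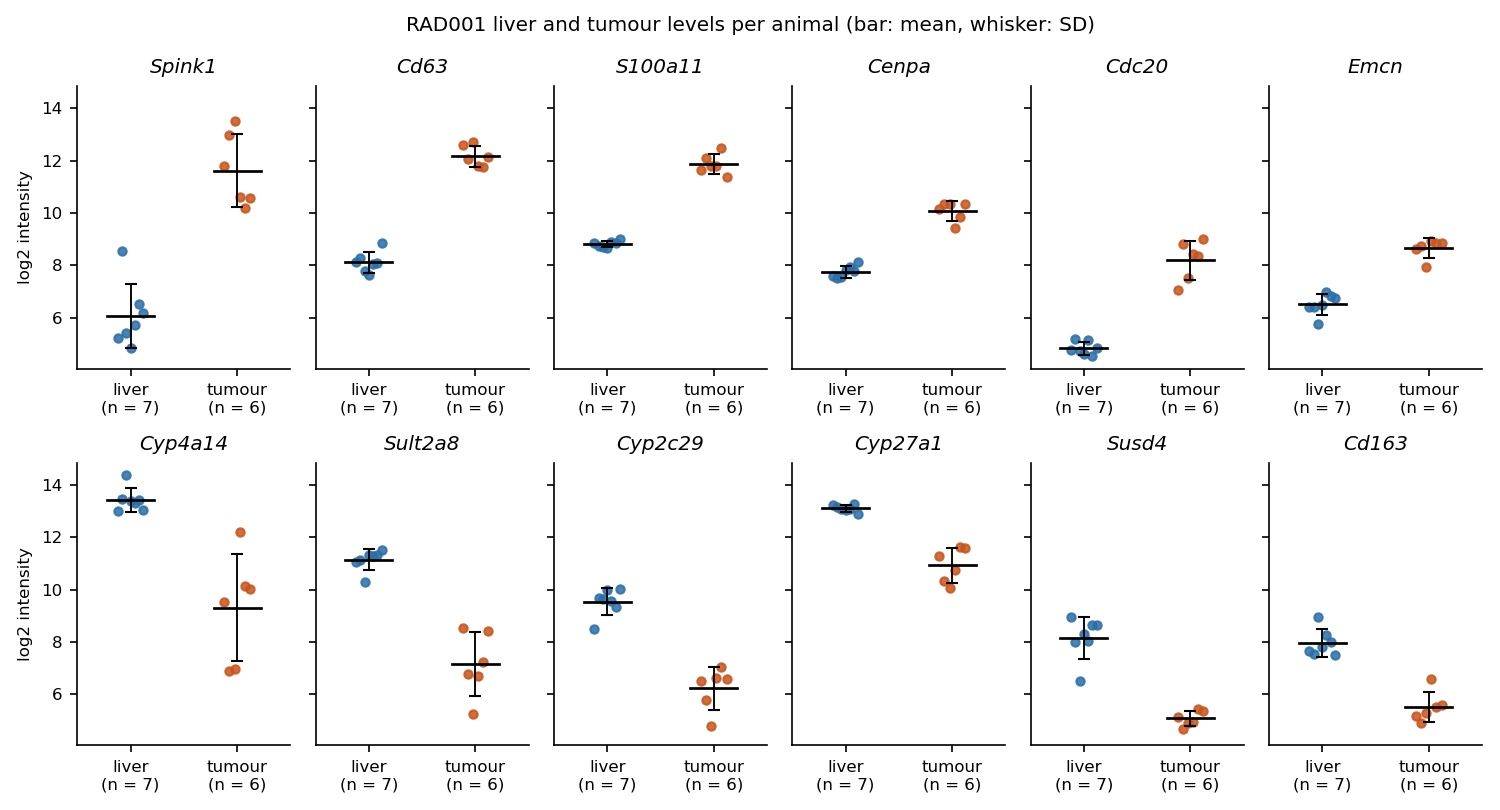
Log2 intensity of 12 genes in each RAD001 animal, livers (n = 7) beside tumours (n = 6), with bars for mean and SD. Spink1, Cd63, S100a11, Cenpa, Cdc20 and Emcn lay higher in every tumour animal than in every liver, and Cyp4a14, Sult2a8, Cyp2c29, Cyp27a1, Susd4 and Cd163 lay lower.

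Of the fetal and carcinoma markers, 7 of 10 tested members rose and none fell, with a median difference of 2.35. Golm1, a Golgi membrane protein shed by hepatocellular carcinoma, ran from 8.57 through 9.35 to 10.88 in tumours and from 6.18 through 6.65 to 7.16 in livers (6.93-fold higher, adjusted p = 7.75e-08). Ly6d, a lipid-anchored surface antigen, was 23.0-fold higher (4.53 ± 0.77, adjusted p = 1.09e-05), with tumours from 7.22 to 12.87 and livers from 4.84 to 6.74. These ranges did not overlap.

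Gpc3 and Afp, fetal liver genes used as markers of hepatocellular carcinoma, differed widely among the tumours. Gpc3 stood at 11.90 in tumour 727, 10.91 in 763, 9.87 in 700, 9.43 in 772, 7.26 in 730 and 5.02 in 732, while the livers ran from 5.97 through 6.34 to 6.97. Tumour 732 thus lay below every liver. The difference of 2.66 ± 0.74 passed the limit (adjusted p = 0.00472), but lost its call within the 5 pairs (2.14, adjusted p = 0.0909). It was 4.14 without the tumours of animals 730 and 732, a choice made after the data were seen. These tumours were the lowest for Gpc3, so leaving them out had to enlarge the difference. Afp ran from 4.73 through 6.91 to 8.81 in tumours and from 4.34 through 4.85 to 6.47 in livers. Its rise of 1.86 ± 0.62 (adjusted p = 0.0185) was not called within the pairs (adjusted p = 0.0553), without tumour 700 (1.46, adjusted p = 0.0847) or without tumour 727 (1.63, adjusted p = 0.0557). Igf2, a fetal growth factor, differed by 1.09 (adjusted p = 0.233), and by 1.61 within the pairs, where it was called (adjusted p = 0.0439).

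Genes of cell division were raised together. In the mitosis list 10 of 11 tested members rose, none fell, and the median difference was 2.51, with 10 called within the pairs. Cenpa, the histone variant that marks centromeres, ran from 9.44 through 10.25 to 10.36 in tumours and from 7.51 through 7.79 to 8.13 in livers (2.33 ± 0.19, 5.03-fold, adjusted p = 2.35e-12). Birc5, or survivin, a subunit of the chromosomal passenger complex, ran from 7.07 through 7.79 to 8.39 against 4.56 through 4.81 to 5.73 (2.67 ± 0.24, 6.38-fold, adjusted p = 2.95e-11). Cdc20, the activator of the anaphase-promoting complex, ran from 7.08 through 8.38 to 9.01 against 4.56 through 4.78 to 5.19. For each of them the lowest tumour exceeded the highest liver. Cdc20 was 10.3-fold higher (3.37 ± 0.32, adjusted p = 5.67e-11), or 2.11 on the log2 scale when its 4 probes were averaged. Prc1, which bundles the microtubules of the spindle midzone, was 9.25-fold higher (adjusted p = 3.1e-10), and Pbk, a mitotic kinase outside the list, 8.45-fold (adjusted p = 4.36e-11). The exception in the list was the checkpoint kinase Bub1b, with 4.60 to 5.25 in tumours and 4.46 to 5.56 in livers (0.06, adjusted p = 0.825). Its medians of 4.85 and 4.70 lay near background in both tissues, so this probe could hardly show a difference. Hepatocytes and other cells of a tumour are read together, so more cells of a kind and more RNA per cell cannot be told apart here or in the results that follow.

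Promoters of mitotic genes often carry the cell cycle homology element TTTGAA and CCAAT boxes, so both motifs were looked for on either strand in RefSeq promoters (build GRCm38.p6), 250 bases before to 50 after each gene start. The motifs did not overlap in the printed sequences. TTTGAA was in 17.9% of all 32851 promoters (20.2% of genes) and CCAAT in 37.4% (41.1% of genes). Of the 10 mitosis genes that rose, 9 had a promoter in the table. TTTGAA was found for 7 of these 9 (Cenpa, Cdk1, Aurka, Plk1, Cdc20, Top2a and Prc1), and the same 7 held CCAAT. Birc5 and Nusap1 held neither motif in this window. A match is a description of letters only. The promoters of Cenpa (chr5:30666636-30666935, plus strand), Cdc20 (chr4:118437294-118437593, minus strand) and Birc5 (chr11:117848987-117849286, plus strand) are printed 5′ to 3′ to show the motifs that 7 of the group held and 1 promoter with neither. Capitals mark TTTGAA and CCAAT, the latter written ATTGG where it lies on the other strand.
Cenpa: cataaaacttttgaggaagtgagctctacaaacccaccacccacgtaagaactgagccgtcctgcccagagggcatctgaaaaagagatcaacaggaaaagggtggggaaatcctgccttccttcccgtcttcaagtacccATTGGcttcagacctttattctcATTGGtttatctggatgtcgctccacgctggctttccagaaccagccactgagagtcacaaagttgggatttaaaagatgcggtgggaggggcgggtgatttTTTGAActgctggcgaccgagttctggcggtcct
Cdc20: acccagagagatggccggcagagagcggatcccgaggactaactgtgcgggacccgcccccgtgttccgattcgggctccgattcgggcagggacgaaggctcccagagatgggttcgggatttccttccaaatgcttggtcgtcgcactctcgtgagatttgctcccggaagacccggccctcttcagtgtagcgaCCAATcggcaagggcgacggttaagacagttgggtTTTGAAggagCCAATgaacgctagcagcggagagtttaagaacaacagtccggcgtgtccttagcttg
Birc5: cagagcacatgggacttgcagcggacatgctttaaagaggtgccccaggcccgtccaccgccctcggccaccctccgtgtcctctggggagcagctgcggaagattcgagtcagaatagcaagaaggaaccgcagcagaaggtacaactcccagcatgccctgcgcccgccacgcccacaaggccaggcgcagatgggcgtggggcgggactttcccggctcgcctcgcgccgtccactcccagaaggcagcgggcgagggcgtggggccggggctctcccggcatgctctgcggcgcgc
In Cenpa the capitals are 2 inverted CCAAT boxes 109 and 86 bases before the start and TTTGAA 17 bases after it. In Cdc20 they are TTTGAA 18 bases before the start, flanked by CCAAT boxes 53 and 8 bases before it.

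Genes of DNA replication followed, with 14 of 18 raised, none lowered and a median of 0.979. Uhrf1, which maintains DNA methylation after replication, ran from 6.86 through 7.43 to 9.13 in tumours and from 4.35 through 4.50 to 4.99 in livers (7.90-fold higher, adjusted p = 2.84e-09). Mcm5, a subunit of the replicative helicase, ran from 7.73 through 8.07 to 8.72 against 4.94 through 5.88 to 6.22 (4.98-fold higher, adjusted p = 5.26e-09). The groups were apart for both. Tk1, a thymidine kinase, was not called (-0.43, adjusted p = 0.208), and its 3 probes disagreed in sign. Without the tumours of 730 and 732 it was called lower (-0.81, adjusted p = 0.0158).

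In the serine, one-carbon and ATF4 list, genes that feed nucleotide synthesis or answer amino acid stress, 11 of 17 rose and 2 fell (median 0.802). Within the pairs 6 rose and 1 fell. Psat1, an enzyme of serine synthesis, ran from 6.88 through 9.16 to 10.36 in tumours and from 4.59 through 4.78 to 7.63 in livers (10.4-fold higher, adjusted p = 9.02e-07). The liver of animal 732 held the highest liver value and overlapped the lowest tumours. Ddit3, the stress transcription factor CHOP, ran from 8.12 through 9.54 to 10.00 against 6.38 through 6.93 to 7.31 (5.21-fold higher, adjusted p = 5.8e-07). Mthfd1, a folate enzyme, was lower in every tumour than in every liver (-0.73 ± 0.15, adjusted p = 0.000124).

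Immediate early genes, which respond within minutes to growth signals and also to tissue handling, were raised in 6 of 10 cases with none lowered (median 0.993). Atf3 was 4.90-fold and Klf6 2.75-fold higher (adjusted p = 3.41e-06 and 6.41e-06), each with no overlap of the groups. Klf6 was 0.84 on the log2 scale as the mean over its probes. The p53 targets had 5 of 11 raised (median 0.387), or 3 without tumour 700, led by Phlda3, an Akt inhibitor, at 5.63 to 7.90 in tumours and 4.40 to 5.68 in livers (3.72-fold higher, adjusted p = 6.8e-06). Of the NRF2 targets 5 of 14 rose and 3 fell. The oxidoreductase Srxn1 was 3.99-fold higher (adjusted p = 4.34e-06), with 12.35 in tumour 732 and 9.81 to 10.46 in the others. Within the pairs 4 rose and 1 fell. Without tumour 732 there were 2 raised NRF2 targets, and without the liver of 700 or of 730 there were 3.

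The median differences of the protein-synthesis lists were small. Ribosomal protein genes, whose translation depends on mTORC1, rose in 7 of 13 cases with a median difference of 0.276. Of the list 0 genes passed within the pairs, and 4 were called without the liver of 760 or without the tumours of 700, 727 or 763. Rpl3 differed by 0.43 (adjusted p = 0.000648, 0.0747 within the pairs). Rps19 differed by 0.49 (adjusted p = 8.38e-05, 0.061 within the pairs), but its probes disagreed in sign, from -1.47 to 0.49. Of the ribosome biogenesis genes 4 of 10 rose (median 0.288), with Nop58, a snoRNP protein, at 0.74 ± 0.19 (adjusted p = 0.0018). In the unfolded protein response list 2 of 13 rose (median 0.236), which lay near the share of 14.7% over all genes. That count was 1 without any of the livers of 700, 730, 732, 760 and 772 or the tumours of 727, 730, 732 and 772.

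The other end of the comparison was the loss of liver-type metabolism. In the cytochrome P450 and drug metabolism list 17 of 18 fell and none rose (median -2.14), or 13 within the pairs. Cyp2c29, an arachidonic acid epoxygenase, ran from 4.80 through 6.55 to 7.05 in tumours and from 8.50 through 9.63 to 10.04 in livers (9.62-fold lower, adjusted p = 9.1e-10). Cyp1a2, which oxidises aromatic amines and caffeine, ran from 7.65 through 9.03 to 9.71 against 11.81 through 12.17 to 12.56 (10.2-fold lower, adjusted p = 3.15e-08). Cyp2e1, the ethanol-inducible P450, ran from 11.34 through 13.11 to 13.63 against 14.72 through 14.97 to 15.08 (4.63-fold lower, adjusted p = 1.61e-06). No tumour reached the lowest liver for any of them. Cyp2c50, which was outside the list, Cyp2c37 and Cyp3a25 were 10.9-fold, 9.24-fold and 3.32-fold lower (adjusted p = 6.69e-09, 3.95e-08 and 2.16e-08). These genes have near-identical relatives, so a probe may read several of them and the values of single members are uncertain. Cyp2a5 alone in the list was not called (0.38, adjusted p = 0.106), and its 4 probes ran from -0.249 to 0.854. It was called higher without tumour 763 (0.59, adjusted p = 0.00581) and without the liver of 732 (0.51, adjusted p = 0.0258), so that 1 gene of the list rose there.

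Cyp4a14, a fatty acid hydroxylase and target of PPARα, had the largest fall among named genes whose groups were apart, at 6.91 through 9.79 to 12.21 in tumours against 12.99 through 13.39 to 14.37 in livers (-4.10 ± 0.67, 17.1-fold lower, adjusted p = 5.97e-06). It belongs to the fatty acid oxidation list, where 8 of 13 fell and none rose (median -0.713). Acaa1b, a peroxisomal thiolase, fell 2.20-fold with no overlap of the groups (adjusted p = 4.8e-06). Sult2a8, a bile acid sulfotransferase, ran from 5.24 through 7.01 to 8.54 against 10.29 through 11.27 to 11.51 (15.4-fold lower, adjusted p = 3.95e-09). Slc1a2, a glutamate transporter of pericentral hepatocytes, ran from 4.90 through 6.71 to 8.87 against 10.46 through 10.70 to 10.89 (15.8-fold lower, adjusted p = 2.97e-06, or -2.46 on the log2 scale as the mean over its 4 probes).

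Bile acid genes fell in 12 of 14 cases (median -1.30), with none higher. Cyp27a1, the sterol 27-hydroxylase of the acidic pathway, ran from 10.04 through 11.01 to 11.63 in tumours and from 12.88 through 13.08 to 13.27 in livers (4.47-fold lower, adjusted p = 1.39e-10). Cyp7a1, the rate-limiting enzyme of bile acid synthesis, ran from 5.09 through 7.04 to 8.79 against 8.11 through 9.59 to 9.98 (5.82-fold lower, adjusted p = 0.00292). Cyp7b1, an oxysterol hydroxylase, ran from 6.88 through 10.18 to 11.87 against 12.19 through 13.004 to 13.35 (9.81-fold lower, adjusted p = 1.91e-05). The groups were apart for Cyp27a1 and Cyp7b1, and overlapped for Cyp7a1 through tumour 763. Slc27a5, the bile acid CoA ligase, fell 2.16-fold (adjusted p = 1.83e-07), while the canalicular exporter Abcc2 differed by 0.15 (adjusted p = 0.571) and its 2 probes disagreed in sign.

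Male-biased liver genes, which pulsatile growth hormone maintains, fell in 11 of 13 cases (median -2.07). Susd4, a complement regulator, ran from 4.66 through 5.05 to 5.45 in tumours and from 6.53 through 8.31 to 8.94 in livers (8.37-fold lower, adjusted p = 1.68e-10), and the glucuronosyltransferase Ugt2b1 was 4.2-fold lower (adjusted p = 7.17e-08). Socs2, a feedback inhibitor of growth hormone signalling, was not called (-0.20, adjusted p = 0.796). Of the female-biased genes 1 of 8 rose, the peroxisomal transporter Abcd2 (1.39, adjusted p = 0.00041, and 0.16 within the pairs), and 1 fell, the acyl-CoA thioesterase Acot3 (-2.58, adjusted p = 0.00146). Both counts lay near the shares over all genes, 14.7% and 13.7%. There were 3 raised without tumour 763 and 2 without the liver of 732, including in both cases the P450 gene Cyp2b9 (2.06 and 1.99, adjusted p = 0.0183 and 0.0184, against 1.35 and 0.146 with all animals). The list of male-biased genes shares Cyp7b1 with the bile acid list.

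Urea and amino acid genes fell in 11 of 17 cases (median -0.74), but only 2 fell within the pairs. The count was 5 without tumour 727, 6 without the liver of 763, and 7 without the liver of 760 or the tumours of 700, 772 or 763. Prodh, proline dehydrogenase, ran from 4.58 through 6.38 to 7.99 in tumours and from 8.61 through 8.84 to 9.07 in livers (5.50-fold lower, adjusted p = 5.67e-07). Otc, the urea cycle enzyme ornithine transcarbamylase, was 2.69-fold lower (adjusted p = 1.68e-06). Hal, histidine ammonia-lyase, was not called (-0.79, adjusted p = 0.136), with 12.94 in tumour 732 and 9.08 to 11.57 in the other tumours. Without tumour 732 it was called lower, at -1.21 (adjusted p = 0.012).

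Among hepatocyte transcription factors 7 of 12 fell and 1 rose, or 4 and 1 within the pairs (median -0.474). Onecut2, a factor of hepatobiliary development, ran from 5.49 through 6.38 to 8.70 in tumours and from 8.78 through 9.03 to 9.42 in livers (5.63-fold lower, adjusted p = 1.59e-07). Nr1h4, the bile acid receptor FXR, fell 1.98-fold (adjusted p = 0.000511), and Foxa3 rose 1.80-fold (adjusted p = 0.00151). Of the genes of pericentral hepatocytes and Wnt signalling, 7 of 13 fell (median -1.51). The Wnt targets Glul and Axin2 were not called (-0.70 and -0.72, adjusted p = 0.104 and 0.106). Without tumour 763 both were called, at -1.02 and -1.08 (adjusted p = 0.013 and 0.00941), and Glul was called without the liver of 700 (adjusted p = 0.0456). Tumour 763 held 6.51 of Glul and 7.21 of Axin2, the highest of any RAD001 animal in either tissue, though the Glul probe was above background on only 2 of 10 tumour arrays. Periportal genes fell in 3 of 7 cases, or 1 within the pairs and 5 without tumour 732, and rose in 1, the adhesion protein Cdh1 (1.57 ± 0.38, adjusted p = 0.00125).

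**Figure D2:**
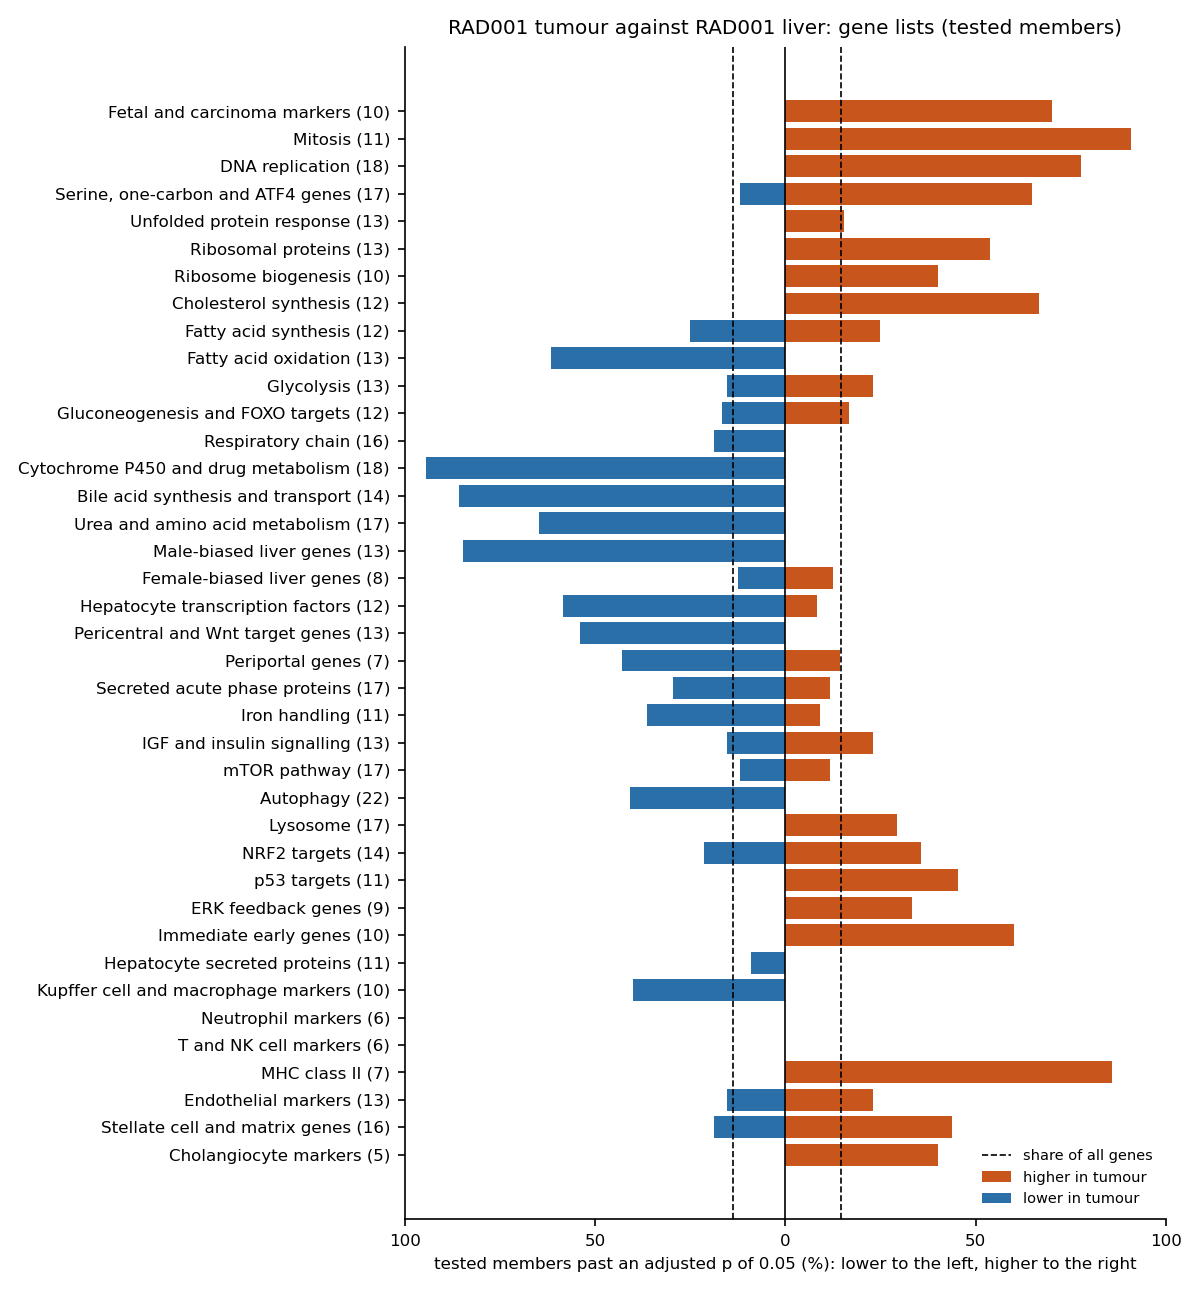
Share of tested members of each gene list that was higher (to the right) or lower (to the left) in RAD001 tumours than in RAD001 livers, for lists with at least 5 tested members. Dashed lines mark the shares over all genes, 14.7% higher and 13.7% lower; mitosis, MHC class II and DNA replication stand far to the right, P450, bile acid and male-biased genes far to the left.

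Lipid and energy genes were mixed. Cholesterol synthesis rose in 8 of 12 cases (median 0.88), but in 2 within the pairs. It was 3 without tumour 772, 4 without the tumours of 700 or 727 or the livers of 700 or 772, and 5 without tumour 730 or the liver of 732. Sqle, squalene epoxidase, ran from 9.25 through 11.52 to 12.37 in tumours and from 8.09 through 9.46 to 9.93 in livers (3.94-fold higher, adjusted p = 0.000201), and tumour 732 was the one that lay among the livers. Lss, lanosterol synthase, was 3.06-fold higher (adjusted p = 0.000361). Of the fatty acid synthesis genes 3 of 12 rose and 3 fell, or 1 and 2 within the pairs. Scd2, a stearoyl-CoA desaturase, was 2.59-fold higher (adjusted p = 0.000211), malic enzyme Me1 2.29-fold lower (adjusted p = 0.00109), and fatty acid synthase Fasn differed by -0.07 (adjusted p = 0.853). The Fasn probe was dim, at 4.57 to 5.78 in tumours and 4.54 to 5.86 in livers. Its value therefore says little about this gene.

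Respiratory chain genes fell in 3 of 16 cases (median -0.189) and in none within the pairs, yet in 10 without tumour 732, in 6 without the liver of 732 and in 9 without the tumours of 730 and 732. Ndufb5, a complex I subunit, was -0.70 ± 0.15 (adjusted p = 0.000322, 0.075 within the pairs). Gluconeogenesis and FOXO targets had 2 of 12 raised and 2 lowered, or 1 and 1 within the pairs. There were 5 lowered without tumour 732, and 1 raised without the livers of 700 or 772 or the tumours of 700, 727 or 763. Pck1, the PEP carboxykinase of gluconeogenesis, ran from 5.74 through 7.11 to 8.50 against 7.28 through 8.26 to 8.75 (-0.97 ± 0.28, adjusted p = 0.00552, and 0.152 within the pairs). Pcx, pyruvate carboxylase, was -0.76 (adjusted p = 0.000145). Glycolysis had 3 of 13 raised and 2 lowered, or 1 and none within the pairs, and 1 was raised without tumour 732, tumour 763 or the liver of 760. Beside the counts of these lists, 14.7% of all genes tested were raised and 13.7% lowered.

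Iron-handling genes fell in 4 of 11 cases, or 2 within the pairs, and rose in 1. Tfr2, an iron sensor of hepatocytes, ran from 9.45 through 10.04 to 10.32 in tumours and from 10.70 through 10.95 to 11.03 in livers (1.85-fold lower, adjusted p = 1.46e-07). Slc40a1, the iron exporter ferroportin, was 2.02-fold lower (adjusted p = 0.000597), and Id1, a target of BMP signalling, 2.69-fold higher (adjusted p = 0.0012). Of 17 acute phase proteins 2 were higher and 5 lower, or 1 and 4 within the pairs. The raised count did not exceed the share over all genes (14.7%), of which 13.7% were lower. Lcn2 was the strongest riser, while Saa3 ran from 5.34 through 5.85 to 6.18 against 6.99 through 7.20 to 8.51 (3.20-fold lower, adjusted p = 1.17e-07).

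Of 17 genes of the mTOR pathway itself, 2 rose and 2 fell (median 0.0422), or 2 and 1 within the pairs. These counts lay near the shares over all genes, 14.7% and 13.7%. Without tumour 730 or the liver of 730, 4 rose. Ddit4, or REDD1, an mTORC1 inhibitor induced by stress, ran from 8.55 through 9.46 to 10.04 in tumours and from 7.06 through 7.91 to 8.38 in livers. No tumour overlapped a liver, and the difference was 1.51 ± 0.29 (2.86-fold, adjusted p = 6.3e-05). In placebo animals it was 0.45 ± 0.29 (adjusted p = 0.244), with 7.69 to 9.15 in tumours and 7.12 to 8.65 in livers. The test of the difference between both treatments gave 1.06 ± 0.41, which was not called (adjusted p = 0.555). Eif4ebp1, the translation repressor 4E-BP1, ran from 10.75 through 11.56 to 12.08 against 10.40 through 10.73 to 10.96 (0.79 ± 0.15, adjusted p = 7.99e-05). Deptor, an mTOR-binding inhibitor, was lower, at 9.21 through 9.45 to 9.76 against 9.69 through 10.03 to 10.31 (-0.55 ± 0.14, adjusted p = 0.0027).

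Of 22 autophagy genes 9 fell and none rose (median -0.232), or 4 within the pairs. Without tumour 727 or 772, 1 rose, the cargo receptor Sqstm1. The kinase Ulk2, which acts at the start of autophagy, ran from 6.98 through 7.59 to 8.14 in tumours and from 8.03 through 8.35 to 8.49 in livers (-0.74 ± 0.13, adjusted p = 2.78e-05). Atg3, which conjugates LC3 to lipid, ran from 7.82 through 8.12 to 8.53 against 8.73 through 8.97 to 9.15 (-0.80 ± 0.13, adjusted p = 8.05e-06, or -0.46 as the mean over its probes). The LC3 gene Map1lc3b and Sqstm1 were not called (-0.09 and 0.37, adjusted p = 0.703 and 0.104). Sqstm1 reached 0.49 without tumour 727 (adjusted p = 0.0291) and 0.48 without tumour 772 (adjusted p = 0.0411), and its highest value, 12.76, was in tumour 732. Lysosomal genes rose in 5 of 17 cases including Cd63 (median 0.0862), in 1 within the pairs, and in 2 or 3 when the liver of 700, 730, 763 or 772 or the tumours of 700, 727, 732 or 772 were left out.

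In the IGF and insulin list 3 of 13 rose and 2 fell, or 1 and 1 within the pairs. Over all genes tested 14.7% were raised and 13.7% lowered, and the lowered count of the list lay near its share. In the list 5 rose without tumour 730, and 4 fell without the liver of 700. Grb10, an adaptor that restrains insulin and IGF receptors and is stabilised by mTORC1, ran from 6.53 through 7.17 to 8.56 in tumours and from 4.996 through 5.64 to 5.79 in livers (3.34-fold higher, adjusted p = 3.1e-08). Igfbp1, a secreted IGF-binding protein, was 3.03-fold higher (adjusted p = 0.0216). Its call was lost within the pairs (adjusted p = 0.118), without the tumours of 700 (0.053), 727 (0.0612) or 763 (0.0687), and without the livers of 700 (0.0712) or 772 (0.0505). ERK feedback genes, transcribed when that kinase is active, rose in 3 of 9 cases, or in 1 within the pairs. Dusp4, a MAP kinase phosphatase, was 2.39-fold higher with no overlap (adjusted p = 0.00384), and Dusp6 differed by 0.79 (adjusted p = 0.0102, 0.109 within the pairs).

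Markers of other cells moved too. Summed over the list, hepatocyte secreted proteins stood at 148000 to 183000 linear intensity units in the 10 tumour arrays (median 167000) and at 160000 to 173000 in the 7 livers (165000), with 1 of 11 genes lowered and none raised. The sum rests mostly on a few of the brightest probes, and the ranges overlapped. The Alb probe, for albumin, was dim in both tissues, at 5.92 to 7.77 in tumours and 6.13 to 7.51 in livers, while Serpinc1, antithrombin, was lower in every tumour (8.14 to 9.60 against 9.66 to 9.92). Without the liver of 700 there were 3 lowered, and without tumour 763 there was 1 raised. Kupffer cell and macrophage markers summed to 1360 to 10300 (2700) against 2890 to 7610 (3410), with 4 of 10 lowered and none raised. Clec4f, a lectin of Kupffer cells, ran from 6.33 through 7.56 to 7.93 in tumours and from 9.12 through 9.40 to 10.56 in livers (4.92-fold lower, adjusted p = 6.8e-07). Cd163, the haemoglobin scavenger receptor of resident macrophages, ran from 4.91 through 5.42 to 6.57 against 7.50 through 7.81 to 8.96 (5.46-fold lower, adjusted p = 2.98e-08). Every tumour lay below every liver for both.

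MHC class II genes went the other way, with 6 of 7 raised (median 1.20). They summed to 1640 to 25500 (5230) in tumours and 1330 to 1950 (1700) in livers. H2-Eb1, a class II β chain, ran from 8.62 through 9.58 to 10.25 against 7.49 through 7.65 to 7.86 (3.63-fold higher, adjusted p = 3.45e-06), and the invariant chain Cd74 from 9.92 through 11.01 to 11.78 against 9.07 through 9.45 to 9.68 (2.91-fold higher, adjusted p = 9.26e-05). The class II transactivator Ciita was not well above background in any liver. T and NK cell markers summed to 39.2 to 356 (120) against 75.1 to 109 (89.6), B and plasma cell markers to 28.2 to 65.0 (35.8) against 12.3 to 36.3 (26.6), and neutrophil markers to 67.5 to 368 (127) against 79.1 to 252 (144). None of the 6, 3 and 6 genes tested in these lists was called. The sums of these lists, the neutrophil list among them, were low for their gene numbers, against a background limit of 14.05 units for 1 probe. The lack of calls there does not show equal cell content. The neutrophil peroxidase Mpo was below background on all arrays of both groups. Without tumour 700 or 727, and within the pairs, the T-cell receptor component Cd3g was called (0.76, 0.76 and 0.70). The part of these cells in the other differences was not tested.

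Vessel and matrix genes were divided. Endothelial markers summed to 3000 to 7970 (4970) in tumours and 4820 to 7080 (5860) in livers, with 3 of 13 raised and 2 lowered, or 2 and none within the pairs. Over all genes tested 14.7% were raised and 13.7% lowered. Emcn, the endothelial sialomucin endomucin, which was not in the list, ran from 7.93 through 8.81 to 8.94 in tumours and from 5.76 through 6.49 to 6.99 in livers (4.47-fold higher, adjusted p = 1.16e-11). The junction protein Esam differed by 0.88 ± 0.13 (adjusted p = 7.8e-07), and Vwf by -0.79 (adjusted p = 0.00314, 0.103 within the pairs). The VEGF receptor Kdr was not well above background on any tumour array. Stellate cell and matrix genes summed to 5080 to 10900 (8470) against 6250 to 7610 (6590), with 7 of 16 raised and 3 lowered, or 7 and 1 within the pairs.

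Col4a1, a basement membrane collagen, ran from 8.72 through 9.80 to 10.26 in tumours and from 6.93 through 7.61 to 7.81 in livers (4.36-fold higher, adjusted p = 1.58e-09). Acta2, smooth muscle actin, ran from 9.75 through 10.55 to 11.14 against 7.36 through 7.94 to 8.25 (5.98-fold higher, adjusted p = 2.42e-09, or 1.65 on the log2 scale as the mean over its probes). Dcn, decorin, a matrix proteoglycan, was lower in every tumour, at 10.04 through 11.03 to 11.28 against 11.997 through 12.09 to 12.36 (2.47-fold lower, adjusted p = 2.88e-08). Lrat and Pdgfrb were below background on all tumour arrays, and Col1a2, Col3a1 and Tagln on all liver arrays. Cholangiocyte markers summed to 175 to 6350 (1660) against 157 to 491 (229), with 2 of 5 raised, none within the pairs, and 1 without the livers of 730, 732 or 760 or the tumours of 700, 727 or 772. Erythroid markers summed to 4440 to 20000 (12500) against 11400 to 16800 (14700), with 1 of 3 lowered, Alas2, the haem synthesis enzyme (3.57-fold lower, adjusted p = 9.06e-07). Acinar markers summed to 11.6 to 64.3 (29.6) against 18.5 to 53.2 (31.8), with neither gene called.

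The same comparison in placebo animals showed which of these differences stood under the drug. There 3651 genes were called (34.8%). Of them 2310 were also called in the same direction with RAD001, which is 77.3% of the RAD001 calls and 63.3% of the placebo calls, and none was called in opposite directions. Across all genes the differences of both treatments correlated with r = 0.891 and rho = 0.792. These values are across genes, which are not independent replicates, and the comparisons share no animal. The deposited values of a treatment shared their brightest ranks, as after a separate normalization of each treatment, which no label states, and all arrays were brought to 1 distribution again before the fit.

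Of the 1076 genes called over 2-fold in placebo, 926 (86.1%) were called in the same direction with RAD001 and 1072 had the same sign. The 578 raised ones had a median of 1.47 in placebo and 1.14 with RAD001, and the 498 lowered ones -1.43 and -1.10. Being chosen in placebo favours larger placebo values. Genes chosen in RAD001, which favours larger RAD001 values, also had the smaller medians with RAD001: the 422 raised genes stood at 1.47 with RAD001 and 1.56 in placebo, and the 337 lowered genes at -1.44 and -1.80. The difference between these medians was not tested.

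**Figure D3:**
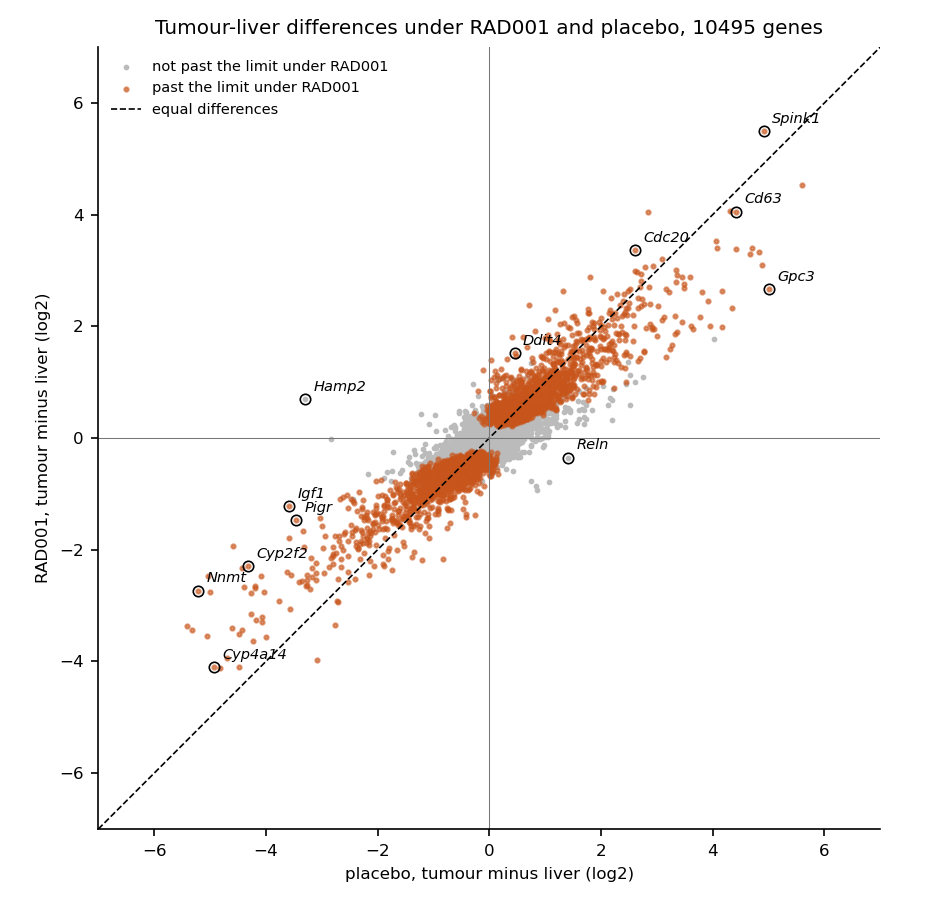
Log2 difference, tumour minus liver, of each tested gene in placebo animals (horizontal) and RAD001 animals (vertical). The differences of both treatments correlated (r = 0.891 across genes), which does not measure closeness to the dashed line of equal differences. Genes called under RAD001 are in orange. Labels mark 12 genes, among them Igf1 and Hamp2, the genes whose differences were called different between treatments.

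By the test of the difference itself, 2 genes were called (0.0191% of those tested), and 787 had an unadjusted p under 0.05. Igf1, the growth hormone-driven endocrine growth factor made by hepatocytes, ran from 7.51 through 9.06 to 9.73 in placebo tumours and from 12.23 through 12.54 to 12.66 in placebo livers, a difference of -3.58 ± 0.31. Under RAD001 it stood at 9.25 in tumour 727, 10.62 in 763, 11.07 in 700, 11.46 in 772, 11.91 in 730 and 12.65 in 732. The RAD001 livers ran from 11.64 through 12.54 to 12.69. Livers of both treatments thus lay close, and 5 of 6 RAD001 tumours lay above every placebo tumour. The tumour-liver difference was -1.22 ± 0.30 with RAD001 (adjusted p = 0.00168), which was not called within the pairs (-0.83, adjusted p = 0.178), and it exceeded the placebo one by 2.37 ± 0.43 (adjusted p = 0.0184).

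Hamp2, a liver peptide related to the iron hormone hepcidin, ran from 6.16 through 6.94 to 9.10 in placebo tumours and from 9.80 through 9.96 to 11.92 in placebo livers (-3.30 ± 0.56). Under RAD001 the tumours stood at 7.80, 7.98, 8.72, 8.89, 9.88 and, in animal 732, 12.74, and the livers ran from 7.67 through 8.86 to 9.39. No RAD001 liver reached the lowest placebo liver. The difference was 0.70 ± 0.56 with RAD001 (adjusted p = 0.381), and it exceeded that of placebo by 4.0 ± 0.79 (adjusted p = 0.0395). Both calls rested on few animals. Without tumour 732 they were 2.05 for Igf1 (adjusted p = 0.0694) and 3.29 for Hamp2 (0.0725), without tumour 730 they were 2.22 and 4.10 (0.0513 for both), and without both tumours 1.78 and 3.24 (0.312 for both). The choice of tumour moved them most. With the lowest-numbered tumour of each animal they were 1.502 and 2.305 (adjusted p = 0.803 and 0.807), and with the highest-numbered 3.02 and 5.44 (adjusted p = 0.0104 and 0.00653), a setting in which Hamp2 was itself higher in RAD001 tumour than liver (1.81, adjusted p = 0.0442). With animal as a fixed block they were 2.81 and 4.07 (adjusted p = 0.0833 and 0.319). Of 41 alternative settings, Igf1 was called in 32 and Hamp2 in 15.

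**Figure D4:**
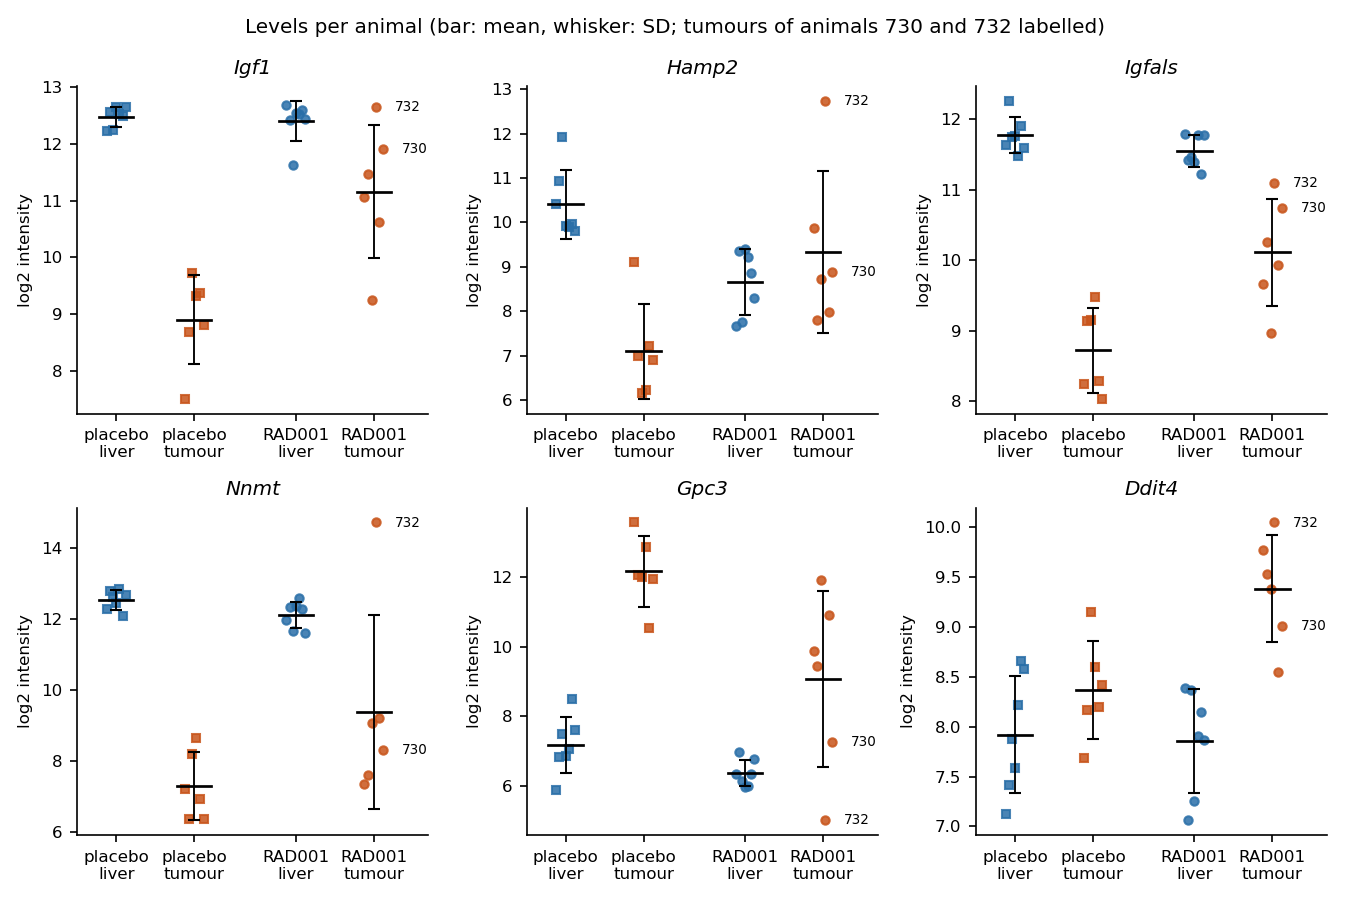
Log2 intensity of Igf1, Hamp2, Igfals, Nnmt, Gpc3 and Ddit4 in livers and tumours of placebo and RAD001 animals, 1 point per animal, with mean and SD. RAD001 tumours 730 and 732 are labelled; for Igf1 5 of 6 RAD001 tumours lie above every placebo tumour, and for Hamp2 tumour 732 stands at 12.74.

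The promoters of both genes are printed because their differences were the ones called between treatments. Growth hormone acts on Igf1 through STAT5, and STAT factors bind TTCNNNGAA, which reads the same on either strand and may overlap TTTGAA. It was in 8.3% of the RefSeq promoters (9.55% of genes). The windows are chr10:87860861-87861160 (plus strand) for Igf1 and chr7:30924132-30924431 (minus strand) for Hamp2, GRCm38.p6, 5′ to 3′, with TTCNNNGAA in capitals.
Igf1: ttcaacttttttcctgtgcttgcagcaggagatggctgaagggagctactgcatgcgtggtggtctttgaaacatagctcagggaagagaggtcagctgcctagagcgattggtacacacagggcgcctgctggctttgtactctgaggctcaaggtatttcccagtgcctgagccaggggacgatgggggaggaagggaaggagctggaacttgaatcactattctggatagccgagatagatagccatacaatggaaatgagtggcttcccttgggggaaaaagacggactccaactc
Hamp2: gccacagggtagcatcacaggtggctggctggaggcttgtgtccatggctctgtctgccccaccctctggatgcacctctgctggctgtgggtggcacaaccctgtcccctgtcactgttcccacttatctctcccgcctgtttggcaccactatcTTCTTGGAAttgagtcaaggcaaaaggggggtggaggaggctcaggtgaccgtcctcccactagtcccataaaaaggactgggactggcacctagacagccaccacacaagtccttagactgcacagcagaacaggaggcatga
The Igf1 window held no match. The Hamp2 window held 1, which began 94 bases before the start.

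Other genes differed between treatments in size without passing the limit. Igfals, which binds IGF1 in a circulating complex, differed by -1.42 with RAD001 (tumours 8.97 through 10.10 to 11.10, livers 11.23 through 11.47 to 11.80) and by -3.04 in placebo, where tumours ran from 8.04 through 8.71 to 9.48. The interaction was 1.62 ± 0.47 (adjusted p = 0.504). Pigr, the polymeric immunoglobulin receptor, differed by -1.47 with RAD001 and -3.45 in placebo (interaction 1.98 ± 0.45, adjusted p = 0.253). Without placebo tumour 748 the Pigr interaction was called (2.41, adjusted p = 0.00177). Cyp2f2, a periportal P450, differed by -2.29 and -4.32 (interaction 2.03 ± 0.55, adjusted p = 0.504). For each of these the RAD001 tumours stood on the liver side of the placebo tumours by the median, with overlapping ranges.

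Nnmt, nicotinamide N-methyltransferase, differed by -2.73 with RAD001 (adjusted p = 0.000687, 0.116 within the pairs) and by -5.22 in placebo (interaction adjusted p = 0.515). Tumour 732 stood at 14.72, above every liver, and the other tumours ran from 7.35 to 9.21. Reln, an extracellular matrix protein of stellate cells, was 1.41 higher in placebo tumours (adjusted p = 0.00025) and differed by -0.35 with RAD001 (adjusted p = 0.43; interaction adjusted p = 0.406). Its RAD001 tumours ran from 8.19 to 11.55 and overlapped the livers at 9.61 to 10.52. Without RAD001 tumour 727 the Reln interaction was called (-2.08, adjusted p = 0.0179).

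By gene list, the median differences of RAD001 and placebo were 2.51 and 2.18 for mitosis, -2.14 and -2.46 for P450, -1.30 and -1.13 for bile acid genes, and -0.713 and -0.721 for fatty acid oxidation. The RAD001 median was nearer to 0 for fetal markers (2.35 and 3.33), male-biased genes (-2.07 and -3.58), urea and amino acid genes (-0.74 and -1.36), ERK feedback genes (0.0127 and 0.74) and the respiratory chain (-0.189 and -0.394), where 15 of 16 had fallen in placebo. It was further from 0 for pericentral and Wnt genes (-1.51 and -0.745), hepatocyte transcription factors (-0.474 and -0.281), DNA replication (0.979 and 0.713) and MHC class II (1.20 and 0.969). No difference between these medians was tested.

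The RAD001 tumours were not alike. Each was placed by the placebo signature, as its median distance from the RAD001 liver mean over the 578 raised and 498 lowered placebo genes. The RAD001 livers lay within 0.122 of 0 on both, but they make up the reference mean, which centres them near 0. The furthest tumour was tumour 1 of animal 772, at 1.78 and -1.72, followed by the tumour of 727 at 1.54 and -1.62, while tumour 2 of animal 772 stood at 0.93 and -0.813. The nearest to liver were the tumour of 732, at 0.62 and -0.779, and tumour 2 of animal 730, at 0.64 and -0.533, whose other tumour stood at 1.11 and -1.13. Tumours of 1 animal thus lay well apart.

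The tumours of animal 700 stood at 1.10 and -1.08 (tumour 6) and 1.48 and -1.41 (tumour 2), and those of animal 763 at 1.38 and -1.50 (tumour 2) and 0.924 and -0.788 (tumour 1). Between the tumours of an animal, 547 genes differed over 2-fold in 730, 967 in 700, 998 in 772 and 1661 in 763. Over the 759 genes called at 2-fold, the median SD between animals was 0.66 in RAD001 tumours and 0.482 in placebo tumours, against 0.319 and 0.308 in livers. Over all genes tested these medians were 0.289 and 0.264 in tumours and 0.243 in livers of each treatment.

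Which tumour stood for an animal also decided several calls. With the highest-numbered tumour alone, 2262 genes were called. Gpc3 (1.76, adjusted p = 0.14), Afp (0.99, 0.285), Igfbp1 (1.07, 0.208), Dusp4 (0.95, 0.0671), Dusp6 (0.54, 0.145), Pck1 (-0.87, 0.104) and Vwf (-0.55, 0.139) then missed the limit, while Glul (-1.07, 0.00958) and Axin2 (-1.15, 0.017) were called. The raised counts became 4 for fetal markers, 5 for serine and ATF4 genes, 3 each for ribosomal proteins and cholesterol synthesis, 2 each for lysosome and p53 targets, 1 for NRF2 targets and 0 for ERK feedback, unfolded protein response and cholangiocyte genes. The lowered counts became 4 for urea and amino acid genes, 1 each for periportal, gluconeogenesis and endothelial genes, and 0 for glycolysis and NRF2 targets. With the lowest-numbered tumour alone, 2988 genes were called, with 5 raised in the IGF list, 4 in the mTOR list, 3 among NRF2 targets, 2 among female-biased genes and 1 among P450 genes, Cyp2a5 (0.67, adjusted p = 0.0023).

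**Figure D5:**
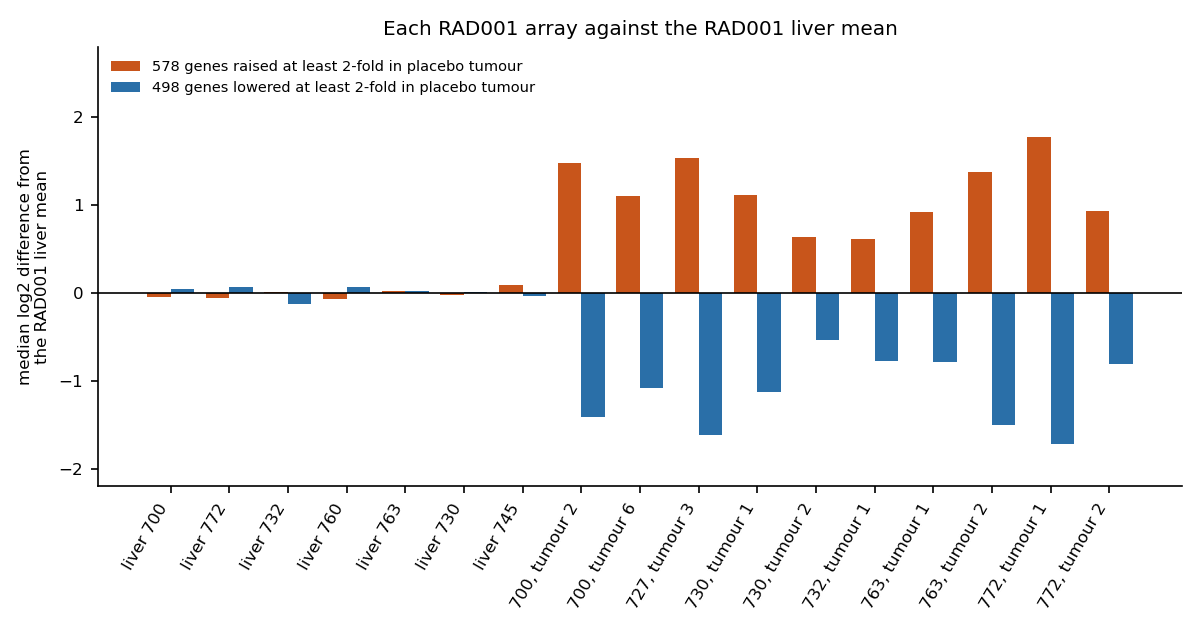
Median log2 distance of each RAD001 array from the mean of the RAD001 livers, over the 578 genes raised and the 498 lowered at least 2-fold in placebo tumours. Livers, which make up that mean, lie within 0.122 of 0, and tumours range from 0.62 to 1.78 for raised and from -0.533 to -1.72 for lowered genes.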

How the data were processed

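Total RNA was read on Illumina bead arrays. The authors deposited linear intensities, with 28.9% of values below 0, so background had been subtracted. BeadStudio was used per the submitters' processing notes, and its version is not given in the sources used here. Between arrays of 1 treatment the 100 brightest ranks were identical (log2 range 0), as quantile normalization within treatments would leave them, a step that no label states for the deposited intensities. A non-normalized table of 128 columns whose names match no sample label was not used.

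All 64 arrays were quantile-normalized together and background-corrected by normexp with mean 0 and a noise SD of 7.025 taken from the mirrored negative values, after which 16 was added and log2 taken. The planned control-probe method (neqc) was replaced because the table used holds no control probes. Of 25697 probes, 23978 had 1 gene symbol, 1719 had none and 0 had several, and 23962 symbols were updated while 16 kept the platform's name. Probes over 14.05 units (2 noise SDs) on at least 6 arrays were kept (15244, of which 896 had no gene), and the brightest stood for its gene, giving 10495 genes, 2728 with several probes. Tumours of an animal were averaged. limma 3.58.1 (R 4.3.3, statmod 1.5.0) was fitted to 49 values of 31 animals in 8 groups. Animal was a random block (correlation 0.0968, residual df 41, prior df 5.03), with Benjamini-Hochberg adjustment over all genes. The groups were livers and tumours of RAD001, placebo, BEZ235 and combination animals, the last given BEZ235 with RAD001 at 2.5 mg/kg. All of them entered the normalization, the probe filter and the spread. On simulated data the fit recovered 96% of 100 genes changed by 1 and 99% of 100 changed by 2 on the log2 scale, and called 16 others. The simulation gave all groups the same spread, whereas the median SD was 0.289 in RAD001 tumours and 0.243 in RAD001 livers. These shares therefore do not measure recovery at the unequal spread of the data.

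The animal number in the titles marks the same mouse, so it pairs tissues. The correlation of a pair's deviations from the group means was 0.113, 0.0421, 0.172, 0.0197 and 0.0975 for animals 700, 772, 732, 763 and 730. Probes not above 14.05 units on any array of a group gave only a bound, the mean of the bright group against the lowest signal above background.

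The genes named are the 12 largest rises and falls whose groups did not overlap, the 5 lowest p-values in each direction, the 2 most significant members of each of 42 lists with up to 2 that differed from them, the 6 lowest p-values in each direction against placebo, and a fixed set. The undetected markers Ciita, Mpo, Kdr, Lrat, Pdgfrb, Col1a2, Col3a1 and Tagln, and the mitosis genes given for their promoters, are named as list members. The lists held 606 genes, 476 of them tested, and share some members. Members and lists were chosen with earlier results of these data known. Alternatives changed the block, the variance model, the normalization, background, offset, filter, probe choice and tumour averaging. They also left out the liver or the tumour value of each RAD001 or placebo animal in turn, but never both tissues of an animal together. Leaving out the tumours of animals 730 and 732 together, taking the highest-numbered tumour of each animal, and fitting all normexp parameters were added after the data were seen.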

Additional observations from a re-analysis of the deposited data

Results flagged for a closer look

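Among 137 genes in the RAD001 tumour and liver groups, 27 of 274 groups (9.85%) held 1 value far from the others by Dixon's test, 9 in tumours and 18 in livers. Chance flags about 1 in 20 groups. The groups are not independent, since genes of 1 sample share it.

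Liver 732 stood apart for 11 genes. It was the highest liver for Psat1 (7.63, the others 4.59 to 5.47), Clec4f (10.56, 9.12 to 9.65), Cyp2a5 (14.50, 13.25 to 13.77), Cyp4a14 (14.36, 12.99 to 13.48), Cyp2b9 (12.66, 7.85 to 9.45) and Bub1b (5.56, 4.46 to 4.91). It was the lowest for Igf1 (11.64, 12.43 to 12.69), Alas2 (8.47, 9.90 to 10.60), Mcm5 (4.94, 5.71 to 6.22), Sult2a8 (10.28, 11.07 to 11.51) and Susd4 (6.53, 8.01 to 8.94).

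Tumour 732 was the highest tumour for Nnmt (14.72, the others 7.35 to 9.21), Srxn1 (12.35, 9.81 to 10.46), Onecut2 (8.70, 5.49 to 6.58) and Uhrf1 (9.13, 6.86 to 7.69), and the lowest for Mlxipl (8.602, 9.79 to 10.27). Tumour 730 was highest for Otc (7.32, 5.59 to 6.09) and lowest for Abcc2 (9.33, 9.85 to 10.08). Tumour 763 was highest for Glul (6.51, 4.37 to 4.74), and tumour 727 lowest for Emcn (7.93, 8.61 to 8.95).

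In the remaining livers, animal 700 was lowest for Glul (4.61, the others 5.64 to 5.96) and highest for Pcx (8.79, 8.26 to 8.44). Animal 745 was highest for Afp (6.47, 4.34 to 5.03), Kdr (5.60, 4.47 to 4.78), Krt23 (7.68, 6.16 to 6.80) and Nusap1 (5.86, 4.24 to 4.83), and animal 730 for Top2a (5.57, 4.27 to 4.70).

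The tumour-liver difference departed between RAD001 and placebo by the interaction test for Igf1 (2.37) and Hamp2 (4.0).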

How the results depend on the processing

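The 2987 calls of RAD001 tumour against liver stayed within 1.5 times under every alternative but 1, from 2667 to 3070 when each tumour or liver was left out, and 2590 with RAD001 arrays alone. Within the 5 pairs as a replicate block there were 1585 calls, 807 higher and 778 lower. The share of calls that were higher ran from 50.3% to 52.2%. Genes called in both treatments numbered 2310, and 1424 with animal as a fixed replicate block. Calls over 2-fold fell from 759 to 511 with an offset of 50. The 2 interaction calls became 1 with no replicate block, with a robust variance trend, without background correction and with an offset of 50. They became 0 with the fixed replicate block, without a filter on dim probes, with every tumour as its own array, with the lowest-numbered tumour of each animal and without the tumours of 730 and 732. Leaving out the liver or the tumour value of 1 animal gave 0 to 3, with 0 without RAD001 liver 732, RAD001 tumour 732 or 730, or placebo tumour 710. The cause of these losses was not tested. Rps19 reversed to -0.48 as the mean over its probes (adjusted p = 0.000836). With an offset of 50, Pbk was 2.05 and Atf3 1.52 on the log2 scale, Phlda3 1.21, Scd2 0.91, Abcd2 0.90 and Dusp4 0.79. Of named genes not described above, the pair block ended the calls of Apcs, Ephx1, Gclm, Hexa, Krt23, Mlxipl, Pkm, Sdhb, Slc2a2, Tspan8 and Xbp1 (adjusted p from 0.0511 to 0.232) and gave calls to Marco, Saa1 and Gabarapl1 (0.0163 to 0.0422), and the fixed block gave calls to Cd8b1, G6pc and Igfbp3 (0.0223 to 0.045). Dim probes limit the low genes to bounds.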
